A study of Mus musculus with 35 samples.

Results

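The comparison described here sets the ischemic brain hemisphere of beta2 adrenergic receptor knockout mice against that of wild type controls, across all genes on the array. RNA was taken 24 h after the middle cerebral artery was occluded (MCAO). It rests on 14 arrays of the 35 in the series, 7 of knockout and 7 of wild type mice, chosen by the genotype and surgery that their labels give. All mice were male and of the FVB background. 2 further pairs of groups are used beside it. Sham-operated hemispheres, also taken at 24 h, had 3 arrays per genotype. Hemispheres of naive mice, which had no surgery, had 7 knockout and 8 wild type arrays and were normalized separately. The knockout groups all carry the receptor deletion and none of the wild type groups does. The labels give the deletion without the allele, the ages of the mice or the length of the occlusion. They number the arrays without saying that each came from a separate mouse, so the p-values below measure the spread between arrays, which may in part be technical.

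The beta2 adrenergic receptor responds to adrenaline and noradrenaline. It couples through the stimulatory G protein to adenylyl cyclase, which makes cyclic AMP (cAMP), and cAMP acts through protein kinase A and the transcription factor CREB. In brain the receptor is found on glia, neurons and blood vessels. Occlusion of the middle cerebral artery deprives cortex and striatum of blood, and within a day the injured hemisphere shows stress responses, glial activation and entry of leukocytes. The comparison therefore asks how an injured hemisphere that never had this receptor differs from one that did.

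Values are log2 signals of 1 probe set per gene, and a difference is knockout minus wild type on that scale. The median signal of the 14 arrays lay between 6.32 and 6.45. Neuronal and astrocytic genes were high in all of them, with Snap25 at 13.42 or above and Gfap at 11.99 or above. Some arrays stood apart. On the first principal component of the surgery arrays, which held 37.5% of the variance, knockout MCAO arrays 2, 5 and 7 scored 0.61, 2.13 and -8.84, between the sham arrays (-28.39 and below) and the other 11 MCAO arrays (12.01 and above). Wild type MCAO array 4 lay at the far end of the second component (17.4% of the variance). The difference between the 3′ and 5′ actin control probe sets, a sign of RNA integrity and labelling, ran from 0.43 to 1.75 in knockout and from 0.39 to 1.70 in wild type MCAO arrays. Among sham arrays it did not overlap, with 1.60 to 1.76 in knockout and 0.86 to 1.01 in wild type. Sham RNA quality and sham genotype therefore cannot be told apart. The Gapdh difference was 0.38 and 1.18 in knockout MCAO arrays 2 and 5 and -0.25 in array 7, against -0.26 to -0.13 in wild type. Naive wild type array 6 had an actin difference of 4.88, against at most 0.82 in naive knockout arrays, and is left out where stated. Wild type MCAO arrays 1 and 2 differed with an SD of only 0.15 across genes, knockout arrays 1 and 6 with an SD of 0.16 and knockout arrays 2 and 5 with an SD of 0.18, below the median SD of pairs in their groups, 0.31 in wild type and 0.41 in the knockout.

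Of 18193 genes tested with limma, 8 (0.044%) differed between the genotypes after MCAO at a Benjamini-Hochberg adjusted p under 0.05. Dusp6, Ring1 and Ppp2r1b were higher in the knockout. 1500015A07Rik, Pmaip1, Il18, 4930503L19Rik and Tmem243 were lower. The differences ran from 1.38-fold for Il18 to 2.77-fold for Pmaip1. With each array centred on its median 3 genes were higher and 3 lower, and after repeated quantile normalization 6 were higher and 4 lower. Below that threshold the comparison held many more genes: 3165 (17.4%) had an unadjusted p under 0.05, of which 2222 (12.2%) were higher and 943 (5.18%) lower. The median absolute difference over all genes was 0.11. The signed median was 0.01 over all genes. It was 0.08 over the 10916 genes left without dim genes, those under the 40th percentile of level. Of these 10916 genes 2383 had an unadjusted p under 0.05.

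**Figure D1:**
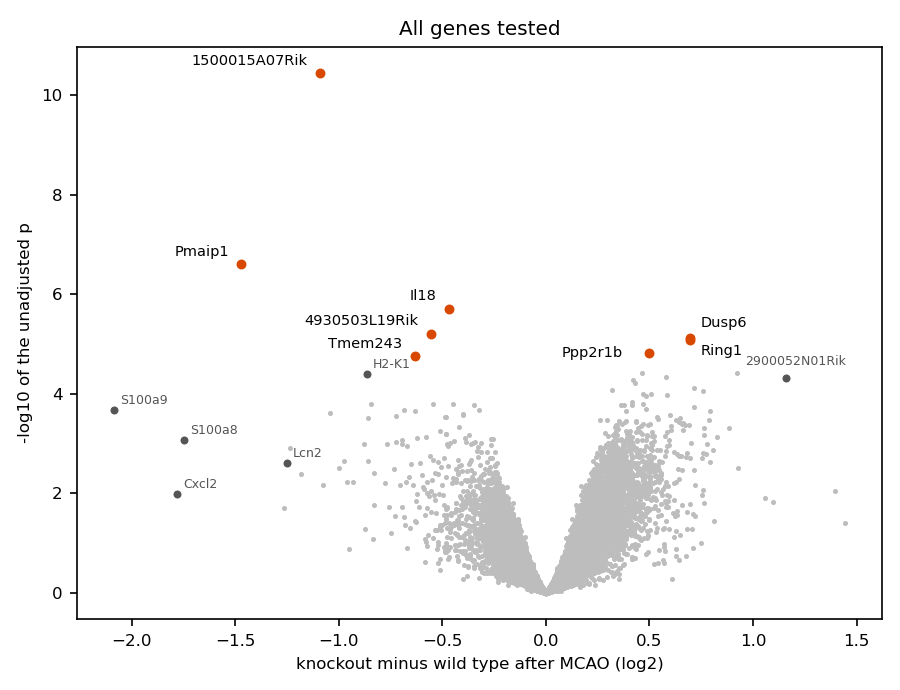
Each point is 1 of the 18193 genes, with knockout minus wild type after MCAO (log2) on the horizontal axis and -log10 of the unadjusted limma p on the vertical axis. The 8 called genes are orange and named; 6 others named in grey, among them S100a9 at -2.09, had differences of at least 0.86 in size but were not called.

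Promoter sequences are shown for the called genes with an entry in the RefSeq promoter table (build GRCm38.p6). They numbered 5 of 8, and each sequence is the 250 bases before the gene's start, on the gene's own strand. The full cAMP response element, TGACGTCA, and its half-site, TGACG or on the other strand CGTCA, were searched because the deleted receptor acts through cAMP. Capitals mark the half-sites. Among the genes higher in the knockout, Dusp6 lies on the plus strand (chr10:99262981-99263230), Ring1 on the minus strand (chr17:34024681-34024930) and Ppp2r1b on the plus strand (chr9:50856674-50856923).
Dusp6: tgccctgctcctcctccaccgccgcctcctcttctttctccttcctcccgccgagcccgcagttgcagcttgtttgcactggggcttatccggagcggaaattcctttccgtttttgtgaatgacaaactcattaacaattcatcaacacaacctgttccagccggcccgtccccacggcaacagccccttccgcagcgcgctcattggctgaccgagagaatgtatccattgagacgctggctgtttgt
Ring1: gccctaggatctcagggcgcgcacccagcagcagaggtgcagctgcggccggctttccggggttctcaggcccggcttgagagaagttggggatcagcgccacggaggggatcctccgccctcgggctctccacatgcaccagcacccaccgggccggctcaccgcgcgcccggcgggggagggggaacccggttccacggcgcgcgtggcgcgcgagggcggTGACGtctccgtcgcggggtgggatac
Ppp2r1b: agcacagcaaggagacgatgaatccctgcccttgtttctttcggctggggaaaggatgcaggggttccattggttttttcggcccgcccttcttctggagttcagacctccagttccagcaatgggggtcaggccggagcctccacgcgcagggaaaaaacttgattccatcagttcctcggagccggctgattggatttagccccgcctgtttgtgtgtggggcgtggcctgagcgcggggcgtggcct
Among those lower in the knockout, Il18 (chr9:50554450-50554699) and Tmem243 (chr5:9100487-9100736) both lie on the plus strand.
Il18: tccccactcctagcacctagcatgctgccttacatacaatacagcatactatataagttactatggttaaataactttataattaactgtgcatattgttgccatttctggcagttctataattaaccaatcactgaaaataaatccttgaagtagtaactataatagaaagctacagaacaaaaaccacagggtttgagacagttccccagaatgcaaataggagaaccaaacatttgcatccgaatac
Tmem243: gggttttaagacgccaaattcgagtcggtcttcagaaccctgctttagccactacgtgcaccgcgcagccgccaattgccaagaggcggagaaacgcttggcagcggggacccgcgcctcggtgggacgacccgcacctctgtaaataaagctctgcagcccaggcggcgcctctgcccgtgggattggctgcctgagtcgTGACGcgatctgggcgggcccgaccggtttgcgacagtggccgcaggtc
Ring1 and Tmem243 each held 1 half-site, and none of the 5 windows held the full element. Over the 18109 windows of tested genes 22.7% held a half-site and 2.12% the full element. The 2308 windows of genes with an unadjusted p under 0.05 and a higher knockout signal held a half-site in 25.4%, and the 846 windows of those with a lower signal in 19.4%. These are matches of letters, not sites of binding.

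Dusp6, a phosphatase that removes the activating phosphates from ERK and is itself induced by ERK signalling, was 1.62-fold higher in the knockout after MCAO. Its signal ran from 10.04 to 10.26 with a median of 10.18 in the 7 knockout arrays, and from 9.21 to 9.72 with a median of 9.42 in the 7 wild type arrays. Every knockout array lay above every wild type array, and the difference was 0.70 (SE 0.118, adjusted p = 0.0252). In sham hemispheres Dusp6 was 10.41, 9.97 and 9.90 in wild type and 10.31, 10.29 and 9.51 in knockout arrays, so the knockout MCAO arrays lay within the range of the sham arrays and 4 of 7 wild type MCAO arrays below it. The sham difference was -0.06 (adjusted p = 0.867). The genotype difference after MCAO exceeded that after sham by 0.75 (adjusted p = 0.0365; 9.59% of all genes were called in this test), a call lost when the actin difference was a covariate (adjusted p = 0.0972) and in some fits without 1 array (adjusted p between 0.0257 and 0.141).

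Ppp2r1b codes for a scaffold subunit of protein phosphatase 2A. Its signal ran from 8.57 to 9.05 (median 8.79) in knockout and from 8.00 to 8.38 (median 8.31) in wild type MCAO arrays. The groups did not overlap, and the difference was 0.50 (SE 0.0889, adjusted p = 0.0398). Sham arrays were at 8.37, 8.08 and 8.10 in wild type and at 8.14, 8.02 and 7.80 in the knockout, all below the lowest knockout MCAO array. The genotype difference was larger after MCAO than after sham by 0.70 (adjusted p = 0.0197), again not called with the actin covariate (adjusted p = 0.0685) and reaching an adjusted p of 0.0887 in fits without 1 array.

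Ring1, a ubiquitin ligase subunit of Polycomb repressive complex 1, ran from 7.90 to 8.59 (median 8.42) in knockout and from 7.44 to 8.09 (median 7.55) in wild type MCAO arrays. The groups overlapped: 6 of 7 knockout arrays exceeded the highest wild type array. The difference was 0.70 (SE 0.119, adjusted p = 0.0252). Sham arrays showed the same order, at 7.93, 7.60 and 7.50 in wild type and 8.29, 8.74 and 8.69 in the knockout, a difference of 0.90 (adjusted p = 0.0188).

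Of the 5 genes that were lower, Pmaip1 had the largest difference. It codes for Noxa, a BH3-only protein that promotes apoptosis and is a target of p53. Knockout MCAO arrays ran from 5.88 to 6.80 (median 6.23) and wild type from 7.04 to 8.84 (median 7.70), without overlap, a difference of -1.47 (SE 0.197, adjusted p = 0.00223). Wild type array 4 was the highest at 8.84. In sham hemispheres Pmaip1 was at 6.18, 6.30 and 5.64 in wild type and at 4.45, 4.63 and 4.55 in the knockout. Both genotypes were thus higher after MCAO than after sham, and the genotype difference after sham, -1.50 (adjusted p = 0.0183), was close to that after MCAO. The difference between the 2 genotype differences was 0.028 (adjusted p = 0.961).

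Il18 codes for interleukin-18, a cytokine of the interleukin-1 family that is released in active form after cleavage by inflammasomes. It ran from 9.31 to 9.55 (median 9.35) in knockout and from 9.72 to 10.05 (median 9.80) in wild type MCAO arrays. No knockout array reached the lowest wild type array, and the difference was -0.47 (SE 0.0721, adjusted p = 0.0118). Sham values were 9.84, 9.96 and 9.93 in wild type and 9.49, 9.22 and 9.27 in the knockout. The sham difference was -0.58 (adjusted p = 0.016), and within each genotype the sham and MCAO arrays covered similar ranges.

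The smallest p belonged to 1500015A07Rik, a transcript known by its cDNA name. Its signal ran from 6.09 to 6.44 (median 6.18) in knockout and from 7.05 to 7.52 (median 7.48) in wild type MCAO arrays, with a difference of -1.09 (SE 0.0874, adjusted p = 6.56e-07). Sham arrays were at 7.15, 7.17 and 7.07 in wild type and at 6.19, 6.16 and 6.37 in the knockout. All knockout arrays, of either surgery, lay below all wild type arrays.

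4930503L19Rik, also known by its cDNA name, ran from 5.29 to 5.75 (median 5.57) in knockout and from 5.85 to 6.30 (median 6.07) in wild type MCAO arrays, a difference of -0.56 (SE 0.0928, adjusted p = 0.0252) without overlap. A further, dimmer probe set of the gene differed by -0.12 (adjusted p = 0.74 over all probe sets). Tmem243, a small transmembrane protein, ran from 7.12 to 7.65 (median 7.46) in knockout and from 7.71 to 8.41 (median 8.10) in wild type MCAO arrays, also without overlap. The difference was -0.63 (SE 0.115, adjusted p = 0.0400), and a dimmer probe set of Tmem243 differed by 0.015 (adjusted p = 0.957). Sham arrays of Tmem243 were at 7.58, 7.58 and 7.30 in wild type and at 6.86, 6.84 and 6.31 in the knockout. The groups of 7 of the 8 called genes did not overlap; over all genes 67 (0.368%) had groups that did not.

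**Figure D2:**
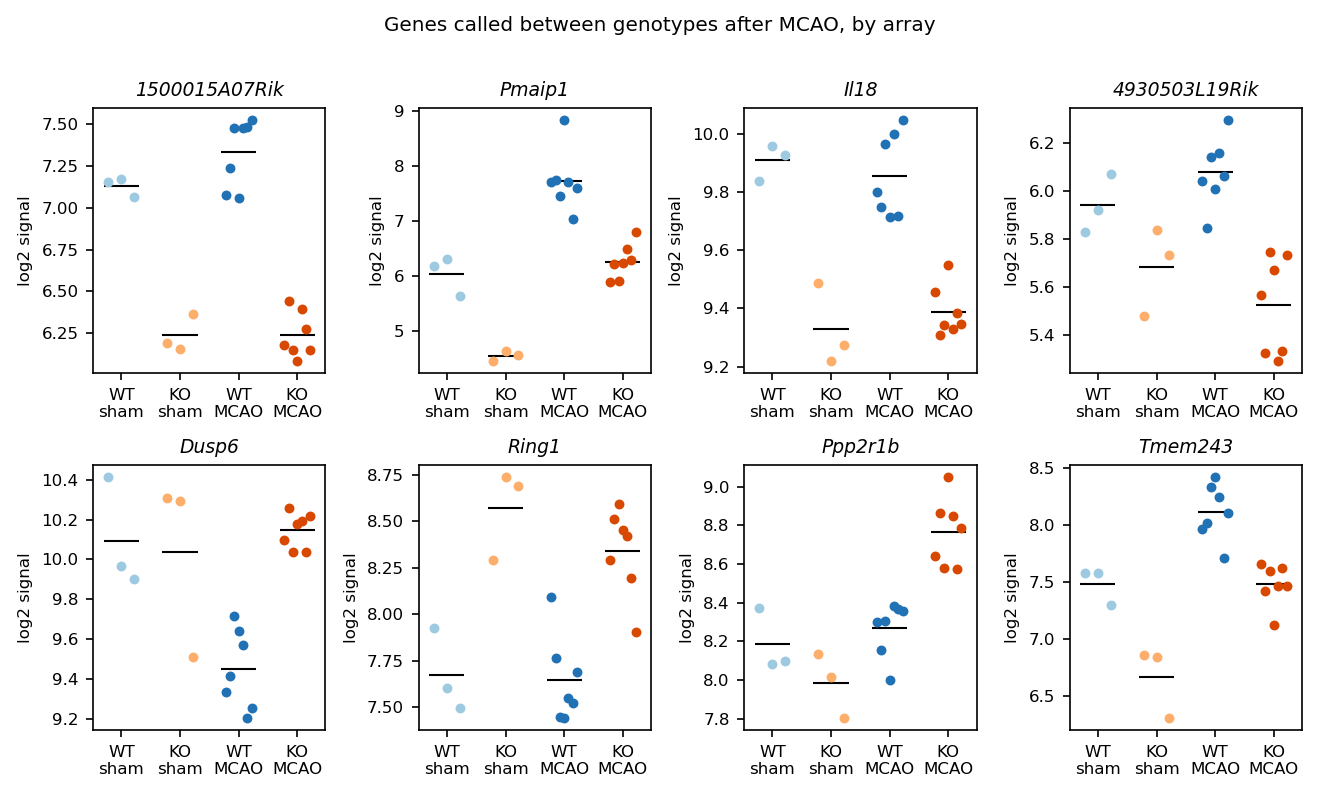
Log2 signal of each of the 8 called genes in the 20 surgery arrays, with 1 point per array and a bar at the group mean; WT is wild type and KO is knockout. Dusp6 and Ppp2r1b separate by genotype in the MCAO arrays and overlap in the sham arrays, whereas 1500015A07Rik, Pmaip1, Il18 and Tmem243 separate in the same direction after both surgeries. Ring1 separates in the sham arrays and overlaps in the MCAO arrays.

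Removing single arrays tested how firmly each call stood. 1500015A07Rik, Pmaip1 and Il18 were called in all 14 fits without 1 MCAO array, with adjusted p of at most 4.49e-06, 0.00994 and 0.0489. 4930503L19Rik lost its call in 5 fits, Dusp6 in 8, Ring1 in 9 and Ppp2r1b and Tmem243 in 10 each, with adjusted p of at most 0.126 and differences that kept their sign. Without wild type array 5 or 7, or knockout array 2 or 5, only 1500015A07Rik, Pmaip1 and Il18 were called. Without wild type array 6 or knockout array 4 the number was 4. It was 13 without knockout array 1, 16 without knockout array 6 and 38 without knockout array 7, and in these 3 fits all 8 genes stayed called. In a fit of only the 14 MCAO arrays, 1500015A07Rik, Pmaip1 and Dusp6 were called and Il18 was not.

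The same genotype difference was then read in the sham and naive arrays, which share no array with the MCAO groups. Of the 8 genes, 5 were also called after sham, all in the same direction (1500015A07Rik, Pmaip1, Il18, Ring1 and Tmem243). There 6.05% of all genes were called. Over all genes the differences after MCAO correlated with those after sham at a Pearson r of -0.25, and with those in naive mice at 0.30. Of 187 genes called after sham with an unadjusted p under 0.05 after MCAO, 152 went in opposite directions. The 5 genes thus differ from the general relation with sham. With the actin difference as a covariate, only 1500015A07Rik kept its sham call (-0.89, adjusted p = 0.044), and the other 4 had adjusted p of 0.0807 to 0.0855 and differences of the same sign. Without 1 sham array the adjusted p of these 5 genes reached 0.062 to 0.13. In naive hemispheres 1500015A07Rik (-1.26, adjusted p = 7.57e-05), Pmaip1 (-2.33, adjusted p = 2.94e-05), 4930503L19Rik (-0.91, adjusted p = 0.000144) and Il18 (-0.58, adjusted p = 0.0428) were called in the same direction, against 14.7% of all genes.

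Without naive wild type array 6, 7 of the 8 were called in naive mice, with 6641 of 18193 genes called in all. Ring1 was then higher by 0.48 (SE 0.0817, adjusted p = 0.000327), Ppp2r1b by 0.25 (SE 0.0679, adjusted p = 0.0081) and Tmem243 lower, at -0.54 (SE 0.132, adjusted p = 0.00488). Dusp6 had 0.24 (SE 0.102, adjusted p = 0.0739). The median naive array signal did not overlap between genotypes, at 7.02 to 7.05 in the knockout and 6.87 to 6.94 in wild type, and centring each naive array moved the median difference of all genes from 0.05 to -0.10. 1500015A07Rik, Pmaip1 and Il18 were the genes called in all 3 array sets. Their naive wild type medians were 7.51, 7.46 and 10.42, against 6.37, 4.91 and 9.97 in the knockout.

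**Figure D3:**
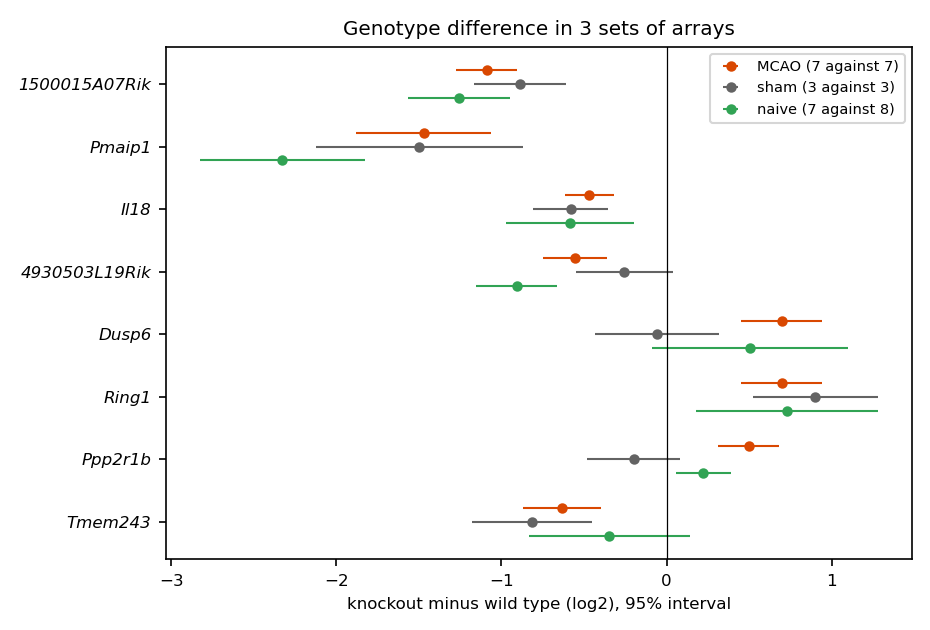
Knockout minus wild type (log2) of the 8 called genes in the MCAO, sham and naive arrays; points are limma estimates and bars are unadjusted 95% intervals, with all arrays kept. The intervals of 1500015A07Rik, Pmaip1 and Il18 lie below 0 in each set, and that of Dusp6 lies above 0 after MCAO and spans 0 after sham and in naive mice.

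The called genes were not spread evenly over the chromosomes. Chromosome 18, with 459 tested genes, held 3 (1500015A07Rik, Pmaip1 and 4930503L19Rik), chromosome 9 held 2 and chromosomes 5, 10 and 17 held 1 each. On chromosome 18, 24.0% of genes had an unadjusted p under 0.05, against 17.4% of all genes. Il18 and Ppp2r1b both lie on chromosome 9 with 12 measured genes between them and differed in opposite directions. Bco2, a carotenoid oxygenase and the measured gene next to Il18, had a difference of -0.39 after MCAO (adjusted p = 0.153) and of -1.005 in naive mice (adjusted p = 5.16e-05). Nkapd1, between Il18 and Ppp2r1b, had 0.49 (adjusted p = 0.0909). Both neighbours were picked for mention with their values known.

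Ring1 lies in the major histocompatibility complex on chromosome 17, and the measured gene next to it is H2-K1, a class I heavy chain that presents peptides to CD8 T cells. H2-K1 ran from 10.09 to 11.17 (median 10.54) in knockout and from 11.31 to 11.66 (median 11.56) in wild type MCAO arrays. The groups did not overlap, yet the difference of -0.86 (SE 0.167) had an adjusted p of 0.0664. In sham arrays it was -0.96 (adjusted p = 0.0353), with 10.22, 10.49 and 10.08 in wild type and 9.80, 9.04 and 9.08 in the knockout. H2-D1, the class I gene at the other end of the complex, ran from 10.71 to 11.81 (median 11.17) in knockout and from 11.86 to 12.32 (median 12.10) in wild type MCAO arrays, a difference of -0.84 (SE 0.184, adjusted p = 0.1). All 9 probe sets of H2-D1 and all 4 of H2-K1 were lower in the knockout, but their sequences are shared in part among class I genes, so the signals cannot be assigned to 1 gene with certainty. Both genes were called without knockout MCAO array 7, with adjusted p of 0.0268 and 0.0493. In naive mice neither was called with all arrays (0.16 and 0.23, adjusted p = 0.853 and 0.81), but naive wild type array 6 was at 6.70 and 7.11, far below the others. Without it both were called lower in the knockout, H2-K1 at -0.34 (SE 0.0534, adjusted p = 0.000187) and H2-D1 at -0.32 (SE 0.0545, adjusted p = 0.000314), the direction of their uncalled differences after MCAO. In that fit 6641 of 18193 genes were called, 2252 of them lower.

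H2-M3, which presents formylated peptides, had a difference of -0.38 (adjusted p = 0.117). H2-Bl, a further class I gene picked for mention with its values known, went the other way. It had 0.69 after MCAO (adjusted p = 0.111) and was not called. It was called higher in the knockout after sham (1.05, adjusted p = 0.0258) and in naive mice (0.87, adjusted p = 1.93e-06). Tapbp, the loading chaperone tapasin, had 0.30 (adjusted p = 0.241), and its second probe set -0.30. Of the 21 measured genes on the list of complement and MHC class I, none was called. At an unadjusted p under 0.05, 1 was higher and 3 lower, against 12.2% and 5.18% of all genes. The median was 0.03 against 0.01 for all genes.

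The 3 largest differences in size over all genes belonged to S100a9, Cxcl2 and S100a8, and none of them was called. S100a9, a subunit of the calprotectin dimer of neutrophils and monocytes, ran from 5.50 to 8.596 (median 7.74) in knockout and from 8.64 to 11.26 (median 8.80) in wild type MCAO arrays. The groups did not overlap, but each spread widely, and the difference of -2.09 (SE 0.467) had an adjusted p of 0.104. The knockout arrays fell into 2 sets: arrays 2, 5 and 7 were at 6.15, 5.81 and 5.50, near or within the range of the sham arrays (5.19 to 5.69), and the other 4 were at 7.74 or above. Wild type array 4 was the highest at 11.26. In fits without 1 MCAO array the difference stayed between -2.32 and -1.75, with adjusted p of 0.0833 to 0.241. S100a8, the partner of S100a9, ran from 5.61 to 9.09 (median 8.03) in knockout and from 8.47 to 10.73 (median 8.86) in wild type, with 6 of 7 knockout arrays below the lowest wild type array and a difference of -1.75 (SE 0.448, adjusted p = 0.117). In naive mice S100a9 differed by -1.42 (adjusted p = 0.000331) and S100a8 by -1.47 (adjusted p = 0.00067), whereas after sham their differences were -0.25 and -0.09 (adjusted p = 0.849 and 0.949).

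Lcn2, an iron-binding acute-phase protein of astrocytes and neutrophils, ran from 7.92 to 10.46 (median 10.09) in knockout and from 9.68 to 11.57 (median 10.63) in wild type MCAO arrays. The groups overlapped and the difference was -1.25 (SE 0.363, adjusted p = 0.129). Saa3, a serum amyloid, ran from 6.55 to 9.08 (median 8.84) in knockout and within the narrow range of 9.14 to 9.31 in wild type. Its groups did not overlap, with a difference of -0.97 (SE 0.279, adjusted p = 0.129), or -0.69 (adjusted p = 0.105) without knockout array 7. Cxcl2, a chemokine that draws neutrophils, ran from 4.31 to 8.51 (median 7.79) in knockout and from 7.37 to 10.12 (median 8.14) in wild type, with a difference of -1.78 (SE 0.631, adjusted p = 0.179). Knockout arrays 2, 5 and 7, at 4.67, 4.38 and 4.31, were inside the sham range of 3.86 to 5.11, and the other 4 were at 7.79 or above. The same 3 arrays were the lowest of the knockout for S100a8, Lcn2 and Saa3 and lay apart on the first principal component; the part of this in the differences was not tested. The related chemokine Cxcl1 had -0.52 (adjusted p = 0.146) and Csf3, the granulocyte growth factor, -0.73 (adjusted p = 0.239), while Ccl12, a monocyte chemokine, had 0.76 (adjusted p = 0.199). Without wild type array 4, in which both stood apart, Csf3 had -0.39 (adjusted p = 0.333) and Ccl12 0.46 (adjusted p = 0.273).

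**Figure D4:**
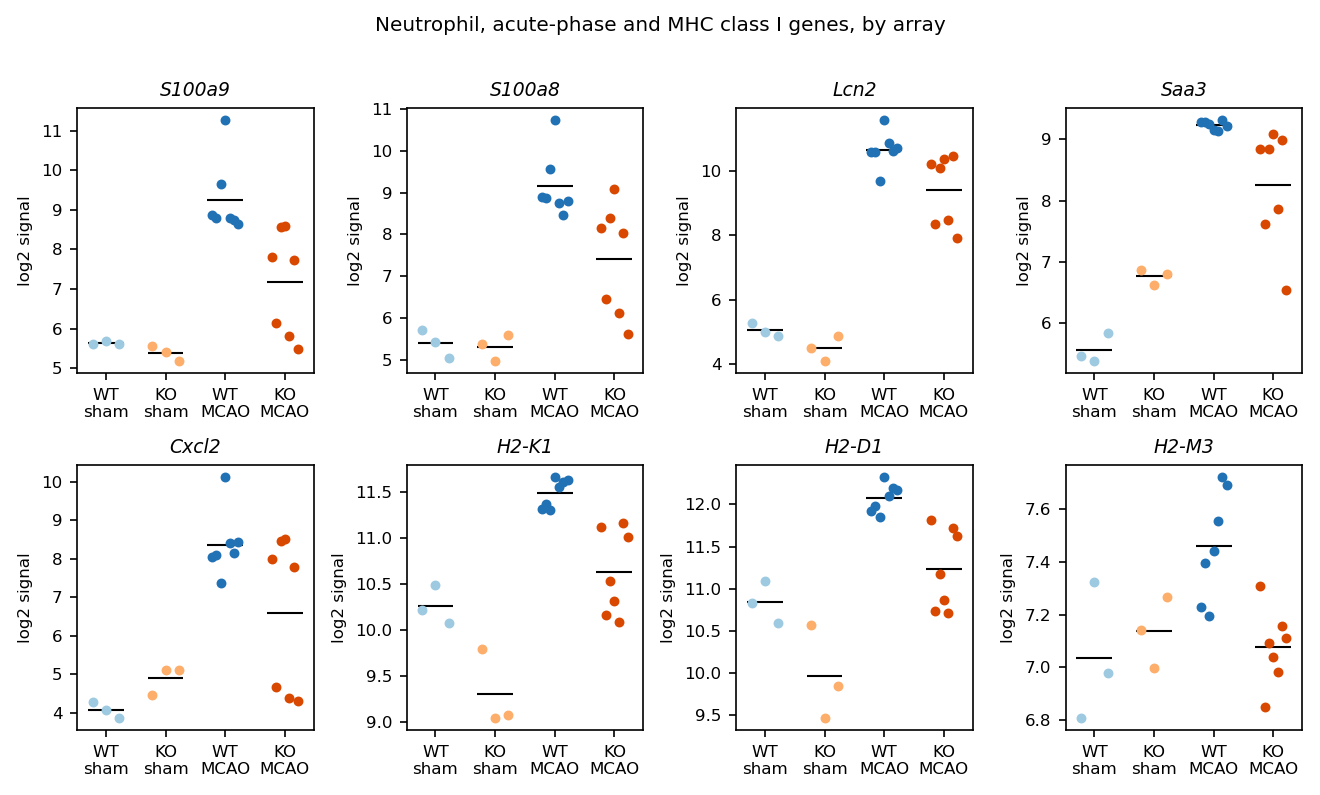
Log2 signal by array of 8 neutrophil, acute-phase, chemokine and MHC class I genes that were not called after MCAO, with 1 point per array and a bar at the group mean. S100a9, Saa3, H2-K1 and H2-D1 have MCAO groups that do not overlap, and 3 knockout MCAO points of S100a9 and of Cxcl2 lie at or near the sham points.

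Read as lists, the leukocyte and cytokine genes gave small counts. Of 19 measured markers of infiltrating monocytes and neutrophils, 17 had a negative difference, 4 with an unadjusted p under 0.05 against 5.18% of all genes, and the median was -0.18. The mean level of the list ran from 5.37 to 6.57 (median 6.04) in knockout and from 6.10 to 6.82 (median 6.26) in wild type MCAO arrays, so the groups overlapped; sham arrays were at 5.19 to 5.53. In bulk tissue fewer cells of a type and less RNA per cell cannot be told apart. Among 24 cytokines and chemokines 16 were negative, 3 of them and 1 positive gene at an unadjusted p under 0.05. The 19 acute-phase genes gave 3 lower and 1 higher. Of the 18 genes of the NF-kappaB pathway, Ikbkb, an activating kinase, had 0.33 (adjusted p = 0.129) on 1 of 5 probe sets and between -0.17 and 0.054 on the others, and the inhibitor Nfkbia had -0.44 (adjusted p = 0.217). None of the 19 Toll-like receptor genes, 19 activated phagocyte genes, 13 lymphocyte genes or 12 endothelial activation genes reached an unadjusted p under 0.05. Over all genes 12.2% were higher and 5.18% lower at that threshold. The lymphocyte list was dim, with a mean level of 4.95 to 5.22 in knockout and 5.02 to 5.34 in wild type MCAO arrays. The 25th percentile of levels was 5.40, so this list could show little.

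Of the 739 measured genes on the 42 lists 2 were called, Dusp6 and Pmaip1, against 8 of 18193 (0.044%) over all genes. Dusp6 belongs to a list of FGF ligands, receptors and ERK feedback genes. Of its 23 measured members 9 were higher and 1 lower at an unadjusted p under 0.05, against 12.2% and 5.18% of all genes, with a median of 0.10. Spry4, an inhibitor of receptor tyrosine kinase signalling, ran from 7.53 to 8.17 (median 7.98) in knockout and from 7.14 to 7.74 (median 7.43) in wild type, a difference of 0.46 (adjusted p = 0.117). Its 3 other probe sets disagreed, at -0.34, -0.23 and 0.13. Etv5, a transcription factor induced by FGF, had 0.79 (SE 0.228, adjusted p = 0.129) with 4 of 7 knockout arrays above the highest wild type array, and its other probe sets had -0.17 and 0.49. Fgfr1, an FGF receptor, had 0.44 (adjusted p = 0.155). The ERK inhibitor Spred2 had 0.36 (adjusted p = 0.18), while its 4 other probe sets were negative. In the immediate early gene list, 28 genes gave 4 higher, the called Dusp6 among them, and 1 lower with a median of 0.0024: Fosl2 had 0.47 (adjusted p = 0.202), Egr1 0.40 (adjusted p = 0.209), and Klf6 -0.42 (adjusted p = 0.129), whose 4 other probe sets were positive.

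Pmaip1 was the one gene called on the p53 and cell death list. Of its 21 measured members 2 were higher and 3 lower at an unadjusted p under 0.05, with a median of -0.05. Over all genes the shares were 12.2% and 5.18%. Mdm2, the p53 ubiquitin ligase and itself a p53 target, had 0.25 (adjusted p = 0.127) and the anti-apoptotic Bcl2 had 0.23 (adjusted p = 0.188), and each had other probe sets of both signs. Gadd45b, a stress sensor, had -0.53 (adjusted p = 0.23).

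Signalling through cAMP, the pathway of the deleted receptor, was measured by 40 genes, of which none was called. At an unadjusted p under 0.05, 10 were higher and 2 lower, against 12.2% and 5.18% of all genes. Of the 40 differences 32 were positive, against 52.4% of all genes. The median of the list was 0.13, against 0.01 over all genes and 0.08 without dim genes. Pde4d, a phosphodiesterase that degrades cAMP, ran from 9.50 to 10.02 in knockout and from 9.27 to 9.69 in wild type MCAO arrays (0.29, adjusted p = 0.162), and its other probe set had -0.059. Prkar2b, a regulatory subunit of protein kinase A, had 0.40 (adjusted p = 0.179) with 6 of 7 knockout arrays above the highest wild type array. The adrenergic receptor Adra2c had 0.33 (adjusted p = 0.196), with 3 other probe sets from -0.13 to 0.23, and the cyclase Adcy2 had 0.21 (adjusted p = 0.197). After sham the median of the list was -0.11, against 0.02 over all genes and -0.12 without dim genes.

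Homeostatic microglia markers stood at 7 of 15 higher and 1 of 15 lower at an unadjusted p under 0.05. Over all genes the shares were 12.2% and 5.18%. The median of the list was 0.26, against 0.01 over all genes and 0.08 without dim genes. Gpr34, a lysophosphatidylserine receptor of microglia, ran from 4.80 to 5.98 (median 5.46) in knockout and from 4.17 to 5.27 (median 4.67) in wild type MCAO arrays (0.76, SE 0.185, adjusted p = 0.114). P2ry12, the microglial ADP receptor that guides processes to injury, ran from 6.11 to 7.41 (median 7.03) in knockout and from 5.83 to 6.54 (median 6.15) in wild type (0.68, SE 0.186, adjusted p = 0.122). For both genes 5 of 7 knockout arrays exceeded the highest wild type array, and for P2ry12 the highest were arrays 2, 7 and 5 at 7.41, 7.38 and 7.35. All 6 sham arrays of Gpr34, at 6.12 to 7.27, and of P2ry12, at 8.45 to 9.01, were above the MCAO arrays. Fcrls had 0.48 (adjusted p = 0.117) and P2ry13 had 0.38 (adjusted p = 0.12), and in naive mice both were called in the same direction (0.63 and 0.46, adjusted p = 0.000103 and 0.000597). Gpr34 was not called in naive mice with all arrays (0.16, adjusted p = 0.769), and the naive median of the list was 0.36. After sham the median of the list was -0.15, against 0.02 over all genes and -0.12 without dim genes. Gpr34 was then at -0.81, P2ry12 at -0.41, P2ry13 at -0.27 and Fcrls at 0.067. The mean level of the list ran from 7.04 to 7.49 in knockout and from 6.72 to 7.18 in wild type MCAO arrays, which overlapped.

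Of 18 glutamatergic and pan-neuronal markers 7 were higher and 1 lower at an unadjusted p under 0.05 (median 0.21). Of 15 ionotropic glutamate receptor genes 3 were higher and none lower (median 0.22). The median over genes that were not dim was 0.08. Over all genes 12.2% were higher and 5.18% lower at that threshold. Tubb3, neuronal tubulin, had a median of 9.66 in knockout and 9.37 in wild type MCAO arrays, with 5 of 7 knockout arrays above the highest wild type array at 9.59 (0.41, adjusted p = 0.126). Map2, a dendritic microtubule protein, had 0.44 (adjusted p = 0.146) but 1 of its other probe sets -0.41, and the vesicular glutamate transporter Slc17a7 had 0.50 (adjusted p = 0.168). The receptor subunits Grin3a and Grid1 had 0.48 and 0.50 (adjusted p = 0.129 and 0.168), and their other probe sets had the same sign. Of 21 potassium channel genes 2 were higher, Kcnv1 at 0.75 (adjusted p = 0.127) and Kcna4 at 0.46 (adjusted p = 0.187), and of 15 GABAergic interneuron markers 2 were higher. None of the 16 striatal medium spiny neuron markers or 12 GABA-A receptor genes reached an unadjusted p under 0.05.

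Myelin genes were mostly lower in value and vessel genes were mixed. Among 16 oligodendrocyte and myelin genes 13 were negative, 4 of them at an unadjusted p under 0.05, with a median of -0.20. Over all genes 5.18% were lower and 12.2% higher at that threshold. Mal, a myelin proteolipid, ran from 10.68 to 11.32 (median 11.14) in knockout and from 11.26 to 12.27 (median 11.48) in wild type MCAO arrays (-0.40, adjusted p = 0.175), and Cnp, a myelin enzyme, had -0.30 (adjusted p = 0.191). Of 19 endothelial and mural genes 9 were positive and 10 negative, with a median of -0.019 (0.026 with median centring); 3 were lower and 1 higher at an unadjusted p under 0.05, or 2 and 2 with centring. Flt1, a VEGF receptor, had -0.54 (SE 0.156, adjusted p = 0.129) and the tight junction gene Cldn5 had -0.45 (adjusted p = 0.156), whereas Tek, the angiopoietin receptor, had 0.39 (adjusted p = 0.193).

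Cytosolic heat shock genes and homeostatic microglia markers had the largest shares of higher members. With median centring, 10 of 19 and 8 of 15 were higher, and their order changed. After sham the median of the heat shock list was -0.27, against 0.02 over all genes and -0.12 without dim genes. Of 19 cytosolic heat shock genes 9 were higher and 2 lower at an unadjusted p under 0.05. Their median was 0.21, against 0.08 over genes that were not dim. Over all genes 12.2% were higher and 5.18% lower at that threshold. Hspa8, the constitutive HSP70, ran from 13.53 to 14.09 (median 13.72) in knockout and from 13.38 to 13.68 (median 13.44) in wild type MCAO arrays (0.26, SE 0.079, adjusted p = 0.137). Its cochaperone Dnaja1 had 0.24 (adjusted p = 0.204). Cryab, a small heat shock protein of glia, went the other way, from 9.16 to 11.14 in knockout and from 10.72 to 11.82 in wild type (-0.83, SE 0.255, adjusted p = 0.142). Of 22 endoplasmic reticulum stress genes 7 were higher and none lower. Dnajc3, an inhibitor of the kinases of eIF2alpha, had 0.39 (adjusted p = 0.129) with 1 of 4 other probe sets negative, Syvn1, a ubiquitin ligase of misfolded proteins, 0.36 (adjusted p = 0.137) and Manf, a secreted stress protein, 0.28 (adjusted p = 0.14).

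The glucocorticoid list was the one with the largest share of lower members, 5 of 16 at an unadjusted p under 0.05 and 1 higher, with a median of -0.22. Over all genes 5.18% were lower and 12.2% higher at that threshold. Sult1a1, a sulfotransferase, ran from 7.02 to 7.75 (median 7.44) in knockout and from 7.53 to 8.12 (median 7.98) in wild type MCAO arrays, with 6 of 7 knockout arrays below the lowest wild type array (-0.55, SE 0.119, adjusted p = 0.1). Arrdc2 had -0.47 (adjusted p = 0.133), the kinase Sgk3 -0.32 (adjusted p = 0.159) and the lipid droplet gene Plin4 -0.54 (adjusted p = 0.182), or -0.35 without knockout array 7. The other probe sets of Sgk3 had -0.098 and -0.036. Of 19 circadian clock genes, Per2, a repressor of the clock that cAMP and glucocorticoids also induce, had groups that did not overlap: 7.95 to 9.04 (median 8.14) in knockout against 7.45 to 7.86 (median 7.69) in wild type. Its difference was 0.71 (SE 0.157, adjusted p = 0.102), and all 6 sham arrays were at 8.11 or above. The other probe sets of Per2 had 0.16 and 0.22. After sham its difference was -0.59 (adjusted p = 0.13). Arntl, an activator of the clock, had 0.29 (adjusted p = 0.253), 0.18 without knockout array 7 and -0.21 on its other probe set.

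The remaining lists were as follows. At an unadjusted p under 0.05, 12.2% of all genes were higher and 5.18% lower. Of 25 interferon response genes 5 were higher and none lower, with Oasl2 at 0.53 (adjusted p = 0.193) and Usp18 at 0.49 (adjusted p = 0.214). Reactive astrocyte markers gave 2 higher and 1 lower of 22, with Gfap, the astrocytic filament, at 0.48 (adjusted p = 0.169) and Clcf1, a cytokine of the interleukin-6 family, at 0.64 (adjusted p = 0.137). Of 20 oxidative stress genes 2 were higher, Gsr, glutathione reductase, at 0.32 (adjusted p = 0.127) and Txnrd1, thioredoxin reductase, at 0.36 (adjusted p = 0.155), whose other probe sets were negative. Of 21 hypoxia and glycolysis genes 1 was higher and 2 lower, with Car9, a carbonic anhydrase induced by hypoxia, at -0.29 (adjusted p = 0.189) and Hif1a at 0.28 (adjusted p = 0.222) with other probe sets of both signs. Of the 22 beta protocadherins, adhesion proteins of neurons encoded in 1 cluster on chromosome 18, 2 were higher and 1 lower. Pcdhb9 ran from 7.25 to 8.47 in knockout and from 3.99 to 8.11 in wild type MCAO arrays (1.39, SE 0.484, adjusted p = 0.175) and was called in naive mice (2.12, adjusted p = 1.46e-05). Markers of neighbouring tissue (choroid plexus, thalamus and hypothalamus, cerebellum and hindbrain, and erythrocytes, with 11, 14, 13 and 3 measured genes) had no member with an unadjusted p under 0.05. The 14 genes of meninges and fibroblasts had 2 higher. Some of these markers were dim in the MCAO arrays, such as Hba-a1 of erythrocytes (4.06 to 4.69) and Gabra6 of cerebellum (4.08 to 5.10). That limits what their lists can show.

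**Figure D5:**
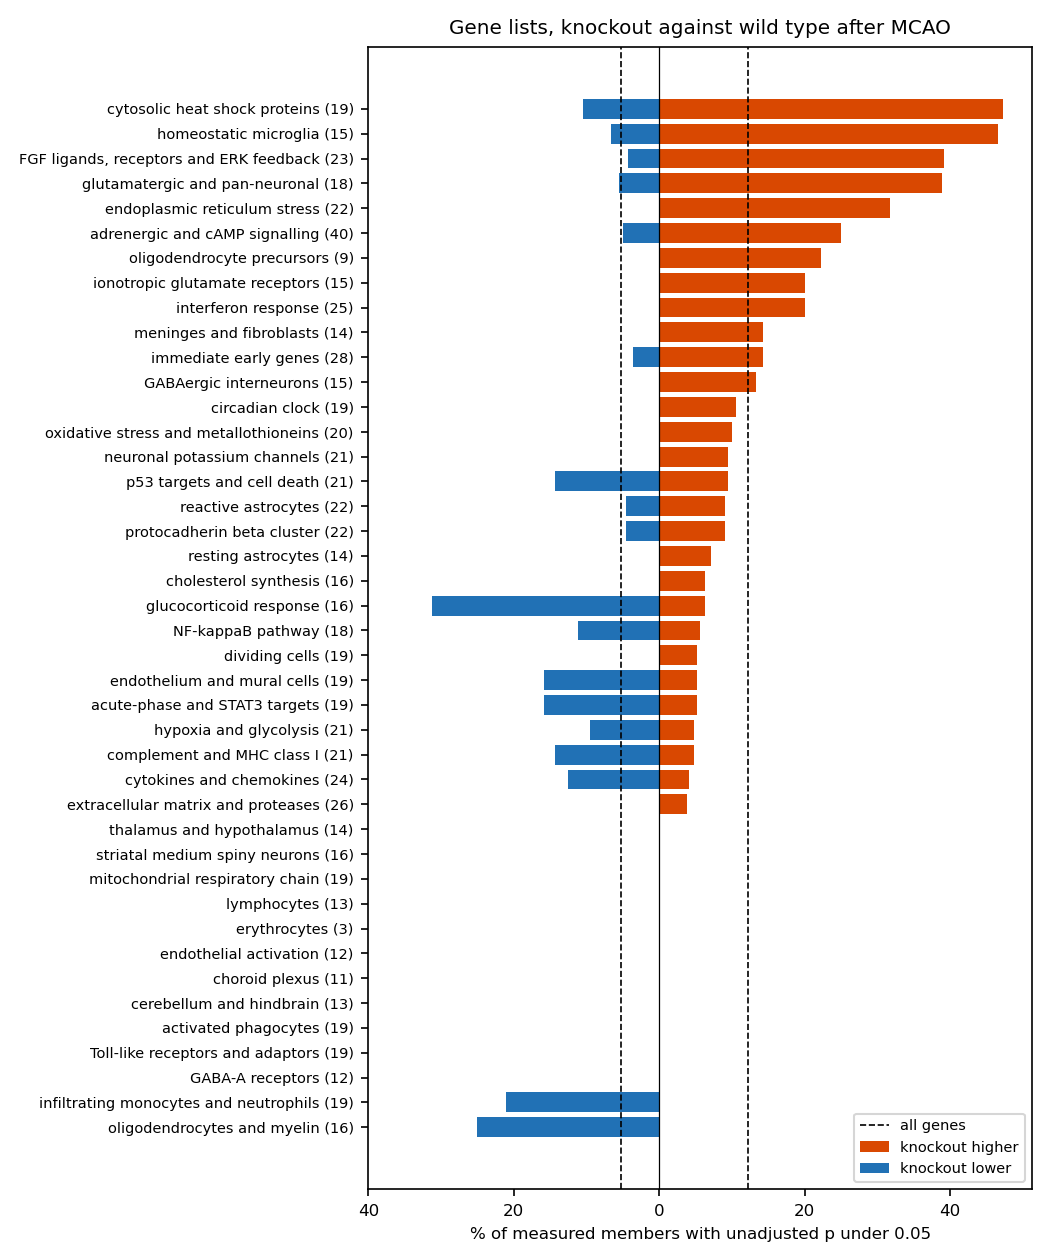
For each of the 42 gene lists, with the number of measured genes in brackets, bars show the percent of members with an unadjusted p under 0.05 that were higher (right, orange) or lower (left, blue) in the knockout after MCAO; dashed lines mark the 12.2% and 5.18% of all genes. The heat shock, homeostatic microglia, FGF and ERK, and glutamatergic and pan-neuronal lists extend farthest to the right. The glucocorticoid list extends farthest to the left.

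The number of calls depended on the RNA quality measure. With the actin difference of each array as a covariate, 986 genes (5.42%) were called after MCAO, 792 (4.35%) higher and 194 (1.07%) lower, and these included all 8 genes above and 52 of the 739 list genes. Among them S100a9 had -2.19 (adjusted p = 0.0188), S100a8 -1.84 (adjusted p = 0.0291), Lcn2 -1.38 (adjusted p = 0.028), Saa3 -1.03 (adjusted p = 0.0395), H2-K1 -0.91 (adjusted p = 0.0111) and H2-D1 -0.89 (adjusted p = 0.0179). On the higher side Gpr34 had 0.83 (adjusted p = 0.0181) and P2ry12 0.75 (adjusted p = 0.0199). On the probe sets used, Per2 had 0.72 (adjusted p = 0.0218), Spry4 0.45 (adjusted p = 0.0378) and Etv5 0.82 (adjusted p = 0.0463). Cxcl2 was not called (adjusted p = 0.0616). Over all genes the median absolute difference was 0.13 in place of 0.11, and the median standard error was 0.0955 in place of 0.101. With the Gapdh difference as the covariate only 1500015A07Rik and Pmaip1 were called. The part of RNA quality in these differences was not tested beyond these fits.

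Several genes outside the lists came near the threshold; they were picked for mention with their values known. Ttll4, a tubulin glutamylase, had groups that did not overlap, 7.55 to 8.03 in knockout and 7.01 to 7.47 in wild type (0.46, adjusted p = 0.0664), but its 3 other probe sets were at 0.027, -0.086 and near 0. Ubfd1, a ubiquitin-domain protein, ran from 9.63 to 10.15 against 8.87 to 9.603 (0.58, adjusted p = 0.0669), with 3 other probe sets between -0.072 and 0.10, and the estrogen receptor gene Esr1 from 6.96 to 7.69 against 5.86 to 6.70 (0.76, adjusted p = 0.0878), with other probe sets at -0.16 and 0.36. 2900052N01Rik ran from 8.47 to 10.84 (median 9.96) in knockout and from 8.52 to 8.98 (median 8.77) in wild type MCAO arrays (1.16, SE 0.228, adjusted p = 0.0669). Its lowest knockout array was array 7, and without it the difference was 1.40 (adjusted p = 4.70e-05). The same gene was called after sham (1.21, adjusted p = 0.0446) and in naive mice (0.97, adjusted p = 0.00581). AI506816 had -1.04 after MCAO (adjusted p = 0.111), and it was called after sham (-1.25, adjusted p = 0.0446) and in naive mice (-1.21, adjusted p = 0.000271).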

How the data were processed

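RNA of brain hemispheres was measured on Affymetrix mouse arrays. The authors deposited log2 signals per probe set; the submitters' processing notes name RMA, and its version is not given in the sources used here. Per the labels, the 20 surgery arrays and the naive arrays went through separate normalization, so their levels are not compared. The table held 45101 probe sets: 64 controls, 34945 with 1 gene symbol, 932 with several and 9160 with none listed. Of those with 1 symbol 34741 had an Entrez ID found in RefSeq (GRCm38.p6). For each of 18193 genes the brightest probe set on average over the 20 surgery arrays was used, and likewise in naive arrays, where 17507 genes had the same probe set. In R 4.3.3, limma 3.58.1 (lmFit, contrasts.fit, eBayes) was fitted to the surgery arrays in 4 groups and to the naive arrays in 2. A gene is called when its p, adjusted by Benjamini and Hochberg's method across every gene tested, is under 0.05. Standard errors are limma's moderated ones, and the number of arrays limits the precision. The scripts were tested on simulated data.

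Named genes are those called, at most 4 per list, those of smallest p, and others said to be picked with their values known. The comparison, the 42 gene lists and the rule were chosen with earlier results of these data known. The receptor gene itself is not reported here. Replicate numbers recur in both genotypes; same-numbered MCAO arrays deviated together (correlation over 0.1) in 2 of 7 pairs, so they were not treated as pairs. Alternatives covered the prior, dim genes, probe sets, scaling, array weights, thresholds, RNA-quality covariates, a replicate block and leaving out arrays.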

Additional observations from a re-analysis of the deposited data

Results flagged for a closer look

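Of 202 groups examined for a single array far from the others, 28 had one, and chance gives about 1 in 20. Wild type MCAO array 4 accounted for most. It was the high array for Pmaip1 (8.84, group median 7.70), S100a9 (11.26, median 8.80), Cxcl2 (10.12, median 8.14), Csf3 (9.18), Cryab (11.82, median 10.84), Mal (12.27), Cnp (13.32), Flt1 (10.24, median 9.08), Tagln (9.26), Egr1 (12.64) and Nfkbia (12.58). It was the low array for Ccl12 (5.80, median 7.78), Bcl2 (7.22), Txnrd1 (9.88) and AI506816 (7.58). Knockout MCAO array 7 was the high one for Dnaja1 (12.65) and the low one for Plin4 (6.90, median 8.23), Mal (10.68), Gfap (12.36), 2900052N01Rik (8.47, median 9.96) and Cxcr4 (4.90). Ltf was high in knockout array 1 (5.92), Irf8 high in knockout array 4 (7.80) and Hif1a low in wild type array 6 (10.00).

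Outside the MCAO arrays, naive wild type array 6 stood apart in its actin difference (4.88), its Gapdh difference (3.51) and the interquartile range of its signals (2.63), and naive knockout array 4 in its Gapdh difference (0.15).

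The genotype difference after MCAO exceeded that after sham by a test of the difference itself for 2 of the 8 called genes, Dusp6 (0.75, adjusted p = 0.0365) and Ppp2r1b (0.70, adjusted p = 0.0197), against 9.59% of all genes. Both calls were lost with the actin covariate (adjusted p = 0.0972 and 0.0685), with which 8 genes were called in all.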

How the results depend on the processing

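The 8 genes called after MCAO became 24 with all probe sets tested, 12 with array weights, 2 at an adjusted p under 0.01, 5 with a 1.5-fold minimum as well, 2 with the Gapdh covariate and 986 with the actin covariate. With only the 14 MCAO arrays 3 were called (1500015A07Rik, Pmaip1 and Dusp6), and Il18 was not. Fits without 1 array gave 3 to 38. Settings chosen after seeing the data gave 1 gene with close pairs of arrays averaged (1500015A07Rik), 437 with only the MCAO arrays whose actin difference was under 1.5 (5 knockout and 6 wild type) and 244 with the 14 MCAO arrays and the actin covariate. With the replicate block 8 genes were called, of which 1500015A07Rik, Pmaip1 and 4930503L19Rik were among the 8; 1 of 7 arrays correlated best with its own number. Pmaip1 and 4930503L19Rik were not tested without dim genes.

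The 1101 sham calls became 450 without dim genes, 1697 with all probe sets, 303 after quantile normalization, 5891 with array weights, 6 at an adjusted p under 0.01, 432 with the 1.5-fold minimum, 6 with the actin covariate and 3451 with only the 6 sham arrays. Fits without 1 sham array gave 0 to 1120; the count was 0 by limma without wild type array 2 or knockout array 3, with 3568 and 3075 genes at an unadjusted p under 0.05. The 2669 naive calls became 357 without dim genes, 5689 with all probe sets, 1499 after quantile normalization, 7637 with array weights, 1342 at an adjusted p under 0.01, 340 with the 1.5-fold minimum, 6680 and 6243 with the Gapdh and actin covariates, and 2005 to 6641 without 1 array, the last without wild type array 6. The 1744 genes whose genotype difference varied with surgery became 638, 2628, 339, 4100 and 0 under the first 4 of these settings and the stricter p, 757 and 8 with the Gapdh and actin covariates, and 0 to 2692 without 1 array, with 0 by limma without knockout sham array 3 (4253 at an unadjusted p under 0.05). The causes were not tested.

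The number of list genes called was 2 also with median centring, under which the medians of the NF-kappaB list (0.015) and others near 0 turned positive. Of 87 named genes not called, 49 were called with the actin covariate. The mean of a gene's probe sets turned the sign of Tapbp (-4.22e-06), Spred2 (-0.022), Klf6 (0.11) and Txnrd1 (-0.093). It left 28 of the 95 named genes with the same sign and a difference over 1.5 times smaller, among them 4930503L19Rik (-0.34) and Tmem243 (-0.31), which were then not called, H2-K1 (-0.39), H2-D1 (-0.52), Spry4 (0.0056), Ikbkb (0.025), Hif1a (0.023), Map2 (0.055), Ttll4 (0.10), Ubfd1 (0.16) and Esr1 (0.32). The 3 sham arrays per genotype and dim probe sets, such as those of Gpr34 and 4930503L19Rik, limit what smaller differences can show.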
